A study of Mus musculus with 4 samples.

Results

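Cd79b, Cd79a, Ms4a1, Cd22, Fcer2a, Jchain and Mzb1 are genes of B cells and plasma cells that were followed here in libraries of sorted intestinal T cells. These 7 genes, of 19339 listed in each library, were selected by name, with their measured levels in the same libraries already known. Their values are therefore given as a description, without a test. The question was whether the level of Cd79b moved from library to library as those of the other B lineage genes did.

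The cells were TCRαβ+CD8αα+ intraepithelial lymphocytes (IELs), T cells that reside between the epithelial cells of the small intestine and carry CD8α without CD8β. They were sorted as CD45+CD4−TCRβ+CD8α+CD8β− cells from C57BL/6 mice. The 2 control libraries came from Kdm6b F/F mice, whose alleles of the histone demethylase gene Kdm6b are flanked by loxP sites, and the 2 libraries labelled Kdm6b-deficient came from Kdm6b F/F-CD4Cre mice, in which Cre driven by CD4 deletes Kdm6b in T cells from a late double-negative thymocyte onwards. Each library held RNA pooled from several mice of a genotype, and the replicate numbers were 1 and 3 in both groups. The groups are called control and CD4Cre below, from their labelled genotype. The age of the mice was not given in the sources used here. The CD4Cre transgene does not act on B cells by design.

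B cells detect antigen with the B cell receptor, a membrane immunoglobulin bound to a heterodimer of Igα, encoded by Cd79a, and Igβ, encoded by Cd79b. Both chains carry an immunoreceptor tyrosine-based activation motif (ITAM), the same kind of motif that the CD3 chains use in T cells, and B cells need both chains to bring the receptor to the surface. Ms4a1 (CD20), Cd22 (an inhibitory lectin of the B cell receptor) and Fcer2a (CD23, the low-affinity IgE receptor) mark mature B cells. Plasma cells, which are abundant in the lamina propria of the gut, secrete IgA with the joining chain encoded by Jchain, and Mzb1 is a chaperone of the endoplasmic reticulum that assists the assembly of secreted immunoglobulin.

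Kdm6b itself was at 16.5 and 16.01 FPKM (fragments scaled to transcript length and library size) in control replicates 1 and 3, and at 18.2 and 11.1 FPKM in CD4Cre replicates 1 and 3. CD4Cre replicate 1 was therefore above both controls (log2 difference of the group means −0.18, limma adjusted p = 0.886). A gene-level FPKM covers the whole transcript and not the deleted part alone. Depth, estimated relative to control replicate 1, was 0.986 in control replicate 3, 0.986 in CD4Cre replicate 1 and 0.819 in CD4Cre replicate 3. The sorted cells' genes were high, with Ptprc (CD45) at 268 to 410 FPKM, Cd8a at 280 to 463 and Cd3e at 304 to 505, and Cd8b1 was listed at 0 in control replicate 1 and at 0.73 to 1.64 FPKM in the other libraries. Cd4, which the sort excludes, was at 30.6 and 10.1 FPKM in control replicates 1 and 3 and at 30.5 and 3.17 FPKM in CD4Cre replicates 1 and 3. The summed level of 22 epithelial markers, relative to control replicate 1, was 3.16 in control replicate 3, 2.94 in CD4Cre replicate 1 and 7.76 in CD4Cre replicate 3, so the libraries differed in their epithelial RNA within each genotype as well as between genotypes.

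Promoter sequences of RefSeq (GRCm38.p6, 250 bases before to 50 after the annotated start) were matched by symbol for Cd79a, Cd22, Fcer2a and Jchain. The sequences of Cd79a, the partner of Cd79b, and of Jchain, the member that varied most between libraries, are shown to set a B cell receptor gene beside a plasma cell gene. The Cd79a promoter lies at chr7:24897247-24897546 on the plus strand and the Jchain promoter at chr5:88527848-88528147 on the minus strand, and both are written 5′ to 3′. Capitals mark an Ets site (GGAAGT) or an E box (CAGGTG), searched on both strands.
Cd79a: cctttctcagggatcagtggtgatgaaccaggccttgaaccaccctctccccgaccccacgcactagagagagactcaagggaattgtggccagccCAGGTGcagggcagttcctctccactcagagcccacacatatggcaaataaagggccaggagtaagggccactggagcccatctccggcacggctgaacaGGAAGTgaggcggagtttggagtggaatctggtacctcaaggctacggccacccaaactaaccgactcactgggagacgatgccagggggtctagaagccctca
Jchain: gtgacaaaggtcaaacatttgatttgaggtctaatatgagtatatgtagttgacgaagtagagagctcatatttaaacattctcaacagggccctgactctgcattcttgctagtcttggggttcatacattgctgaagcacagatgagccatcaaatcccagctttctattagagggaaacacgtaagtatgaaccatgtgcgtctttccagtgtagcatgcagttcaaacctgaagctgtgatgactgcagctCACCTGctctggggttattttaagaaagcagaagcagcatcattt
The Cd79a window held both motifs, and the Jchain window held the E box, on the opposite strand (CACCTG), and no Ets site. The motifs were chosen after the sequences were seen. Of 32851 mouse promoter windows of this length, 23.8% held the Ets site and 20.2% held the E box, so each match is a common one. The octamer ATGCAAAT, found in 1.74% of the windows, was not among the letters of the windows of Cd79a, Cd22, Fcer2a or Jchain.

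Cd79b (Entrez 15985, chr11:106311341-106314562) was at 33.5 and 30.8 FPKM in control replicates 1 and 3 and at 32.8 and 28.4 FPKM in CD4Cre replicates 1 and 3. All 4 values lay close together, and the genotypes overlapped. These levels rested on an estimated 504, 457, 487 and 350 fragments, and the exact 95% Poisson intervals, which cover counting error only, were 30.6 to 36.5, 28 to 33.7, 29.9 to 35.8 and 25.5 to 31.5 FPKM. The group means were 32.1 ± 1.89 FPKM in control and 30.6 ± 3.13 FPKM in CD4Cre libraries (SD, n = 2 each), a log2 difference of −0.07 on the log2(FPKM + 1) scale that is used for every difference below. This was smaller than the difference between replicates 1 and 3 of either genotype, 0.12 in control and 0.20 in CD4Cre.

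Cd79b was also among the less variable genes of the whole table. Its log2 levels spanned 0.23 from the lowest to the highest library, and 8.09% of the 12009 genes tested (those that reached 1 FPKM in 2 or more libraries) spanned less, against a median span of 0.62 over all genes tested. Its mean of 31.3 FPKM was exceeded by 3339 of these genes (27.8%). In bulk libraries, fewer cells of a type and less RNA per cell cannot be told apart, for Cd79b as for the other genes.

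Cd79a (Entrez 12518, chr7:24897497-24901858) encodes the partner chain but was at 3.53 and 1.75 FPKM in control replicates 1 and 3 and at 2.30 and 2.15 FPKM in CD4Cre replicates 1 and 3. Control replicate 1 was the high library and the other 3 lay close together. The genotypes overlapped, with means of 2.64 ± 1.26 and 2.23 ± 0.11 FPKM (SD, n = 2 each) and a log2 difference of −0.13, which became 0.23 without control replicate 1 and −0.49 without control replicate 3. Per length, Cd79b was therefore above Cd79a in every library, 9.48-fold (exact 95% interval from counting error 7.36 to 12.5) and 17.6-fold (12.5 to 26.4) in control replicates 1 and 3. In CD4Cre replicates 1 and 3 the ratio was 14.3 (10.3 to 19.8) and 13.2 (9.25 to 19.5). The lower bound was above 7 in all 4 libraries, so the levels of the partner chains differed far beyond counting error in each.

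**Figure D1:**
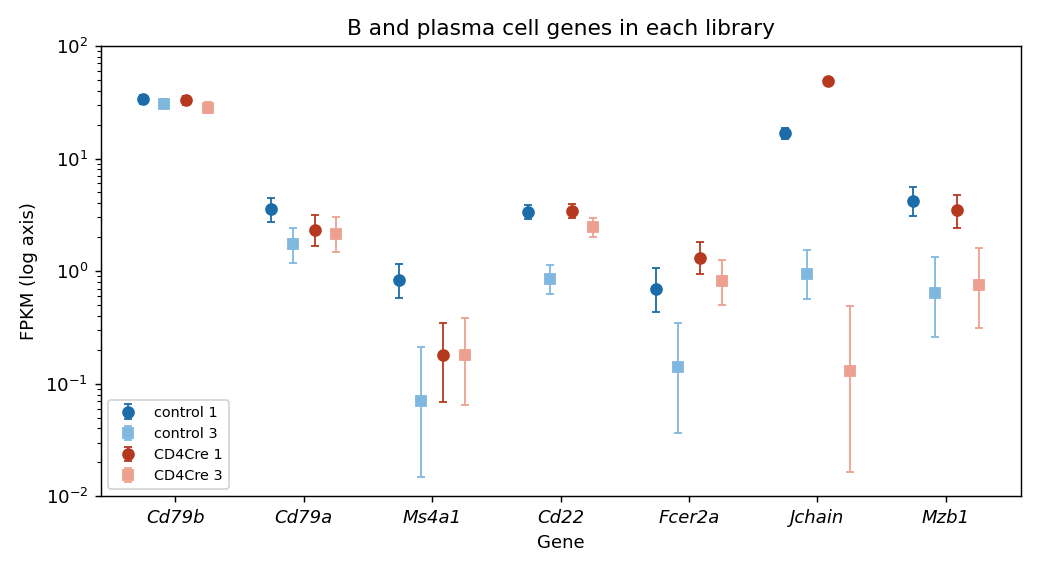
FPKM (log axis) of the 7 members in each library, with circles for replicate 1 and squares for replicate 3 and bars for exact 95% Poisson intervals, which cover counting error only. Cd79b stayed between 28.4 and 33.5 FPKM, whereas Jchain ran from 0.13 to 48.8 FPKM, with both replicate 1 libraries above both replicate 3 libraries.

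Of the B cell surface genes, Cd22 (Entrez 12483, chr7:30865404-30880342) was at 3.34 and 0.85 FPKM in control replicates 1 and 3 and at 3.44 and 2.46 FPKM in CD4Cre replicates 1 and 3. Control replicate 3 was the low library, and the genotypes overlapped, with means of 2.10 ± 1.76 and 2.95 ± 0.69 FPKM and a log2 difference of 0.47. The ratio of replicate 1 to replicate 3 was 3.93 (exact 95% interval 2.83 to 5.54) in control and 1.40 (1.10 to 1.79) in CD4Cre libraries. For Cd79b the same ratios were 1.09 (0.956 to 1.24) and 1.16 (1.01 to 1.33). Leaving out control replicate 3 turned the Cd22 difference to −0.15, so its direction rested on that library.

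Ms4a1 (Entrez 12482, chr19:11249679-11266149) was at 0.83 and 0.07 FPKM in control replicates 1 and 3 and at 0.18 FPKM in each CD4Cre library. These values rested on an estimated 35, 3, 7 and 6 fragments. Only control replicate 1 stood above the rest, at 11.9 times replicate 3 (3.63 to 58.5), and the log2 difference between genotypes was −0.25, which became 0.14 without control replicate 1 and −0.63 without control replicate 3. Fcer2a (Entrez 14128, chr8:3680280-3694174) was at 0.69 and 0.14 FPKM in control replicates 1 and 3 and at 1.31 and 0.82 FPKM in CD4Cre replicates 1 and 3. Both CD4Cre libraries were above both control libraries (log2 difference 0.56, 1.39 with a pseudocount of 0.1, 0.28 without control replicate 3 and 0.85 without control replicate 1), on an estimated 21, 4, 39 and 20 fragments. Neither gene reached 1 FPKM in 2 libraries, so neither entered the counts over tested genes. Ms4a1 and Fcer2a thus differed from each other in which libraries were high.

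The plasma cell gene Jchain varied most of the 7 members. It (Entrez 16069, chr5:88519809-88527897) was at 16.7 and 0.94 FPKM in control replicates 1 and 3 and at 48.8 and 0.13 FPKM in CD4Cre replicates 1 and 3. Both replicate 1 libraries were high and both replicate 3 libraries low, and the highest level, on an estimated 861 fragments, and the lowest, on 2 fragments, occurred in the same genotype. The ratio of replicate 1 to replicate 3 was 17.8 (exact 95% interval 10.6 to 30.2) in control and 375 (98.7 to 2957) in CD4Cre libraries. The genotype means of 8.82 ± 11.1 and 24.5 ± 34.4 FPKM differed by 0.36 on the log2 scale, which was far below the replicate differences of 3.19 and 5.46. This sign was not stable for Jchain, with −0.32 and −0.61 at pseudocounts of 0.1 and 0.01, and −2.37 without CD4Cre replicate 1, −1.24 without control replicate 3, 1.95 without control replicate 1 and 3.09 without CD4Cre replicate 3.

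Mzb1 (Entrez 69816, chr18:35647265-35650266) was at 4.2 and 0.64 FPKM in control replicates 1 and 3 and at 3.48 and 0.76 FPKM in CD4Cre replicates 1 and 3. The replicate 1 libraries were again the high ones in both genotypes, by 6.56-fold (2.91 to 17.01) and 4.58-fold (1.93 to 11.7). The genotype means were 2.42 ± 2.52 and 2.12 ± 1.92 FPKM, with a log2 difference of −0.06. It was 0.78 without control replicate 1 and −0.89 without control replicate 3, so its sign rested on single libraries. Of the 11 measured genes of the plasma cell and secretory list, both replicate 1 libraries were above both replicate 3 libraries for 5 (Prdm1, Irf4, Tnfrsf17, Ell2 and Edem1) and below them for 3 (Sdc1, Fkbp11 and Creld2), beside 22.8% and 22.3% of all genes tested. The values of Tnfrsf17, Sdc1 and Fkbp11 are given as examples chosen after they were seen. Tnfrsf17, the BCMA receptor of plasma cells, was at 1.05 and 0.72 FPKM in the replicate 1 libraries of control and CD4Cre and was listed at 0 in both replicate 3 libraries. Sdc1, the plasma cell surface proteoglycan syndecan-1 that epithelial cells also carry, was at 9.14 and 17.7 FPKM in control and at 14.1 and 44.8 FPKM in CD4Cre replicates 1 and 3, and Fkbp11, a secretory pathway isomerase, at 2.91 and 7.58 FPKM and at 6.82 and 10.9 FPKM.

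The order of mean levels was Cd79b, Jchain, Cd22, Cd79a, Mzb1, Fcer2a and Ms4a1. Cd79b exceeded every other member in 3 libraries, and in CD4Cre replicate 1 Jchain, at 48.8 FPKM, exceeded Cd79b, at 32.8. The ranges over the libraries overlapped for every pair of neighbours in this order, so the order of neighbours is not beyond their spread.

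Set against the other 6 members, Cd79b had the smallest span over the 4 libraries. Replicate 1 was above replicate 3 for 6 of the 6 in control libraries (50.8% of all genes tested) and for 5 of the 6 in CD4Cre libraries (49.1%), with Ms4a1 equal there. The counting interval of the ratio lay above 1 for all 6 in control but for 3 of the 6 in CD4Cre libraries (Cd22, Jchain and Mzb1). The share of all genes that met this rule was not computed, so nothing is read from these counts. Between the CD4Cre replicates Cd79a (0.07) and Ms4a1 (0) differed less than Cd79b (0.20). Cd79b had the same sign in both genotypes, with the small differences given above, and the log2 spans of the other 6 over the libraries ran from 0.72 to 5.46. The median genotype difference of the 6 was 0.15, from −0.25 for Ms4a1 to 0.56 for Fcer2a, against −0.07 for Cd79b. With 2 libraries against 2, an exact permutation test could not give a two-sided p below 0.333.

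Of the 5 members that passed the filter, 2 (Jchain and Mzb1) were higher in replicate 1 than in replicate 3 by over 1 on the log2 scale in both genotypes, a rule that 0.433% of all genes tested met, and 0 of 5 were lower by as much, against 3.89% of all genes tested. By any amount, both replicate 1 libraries were above both replicate 3 libraries for 5 of 5, Cd79b included (22.8% of all genes tested). By genotype, 0 of 5 had a log2 difference above 1 (6.2% of all genes tested) and 0 of 5 one below −1 (0.441%). The libraries of one genotype lay entirely above those of the other for 0 of 5 in the direction of higher levels in CD4Cre (18.4% of all genes tested) and for 0 of 5 in the direction of lower levels (18.6%). Because the members were selected with these values known, nothing is read from these shares.

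**Figure D2:**
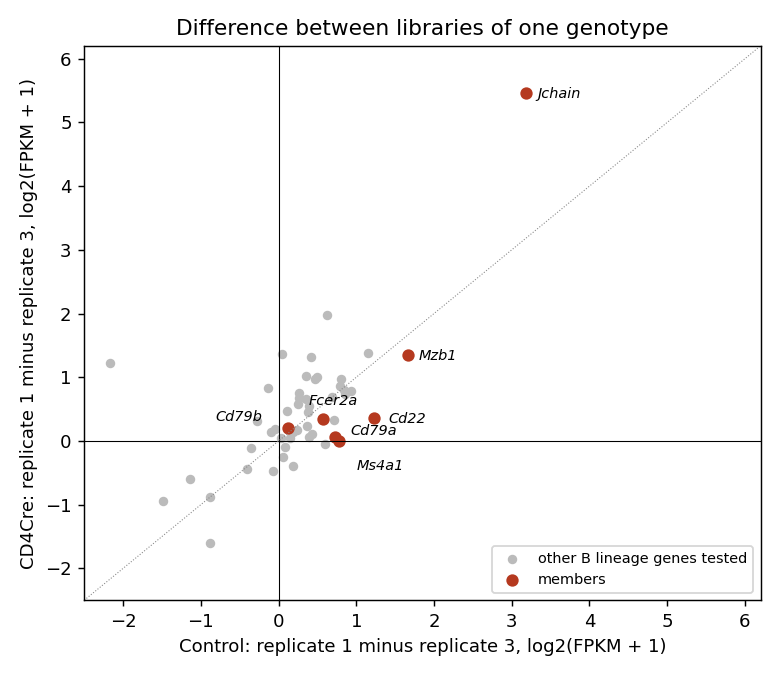
Replicate 1 minus replicate 3 on the log2(FPKM + 1) scale in control (horizontal) and CD4Cre libraries (vertical), for the 7 members (red) and the 44 other B lineage genes tested (grey), with a dotted line where the values are equal. Jchain (3.19 and 5.46) and Mzb1 (1.66 and 1.35) lie far out, and Cd79b (0.12 and 0.20) lies near the origin.

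Genes whose pattern over the 4 libraries was most like that of Cd79b were found by the root mean square distance of log2 levels, each gene centred on its own mean. The nearest 10 were Ccnl2, Tlcd2, Cemip2, Ino80e, Clip1, Dctn3, Aup1, Pigs, Acot9 and Trrap, at distances of 0.005 for Ccnl2 to 0.0188 for Trrap. None is on the B lineage list, but only 44 of the 12009 genes tested are, so nothing is read from this. Of the members, Cd79a ranked 5299 among 12010 genes, with 44.1% nearer to Cd79b, Ms4a1 6466 (53.8% nearer), Fcer2a 8648 (72.0%), Cd22 9900 (82.4%), Mzb1 10836 (90.2%) and Jchain 12000 (99.9%). A flat gene is by this measure nearest to other flat genes, and 4 libraries are too few for a correlation. Of the genes annotated within 50 kb of Cd79b, Psmc5, a proteasome subunit, was at 110 to 126 FPKM and Smarcd2, a chromatin remodelling subunit, at 8.95 to 16.3 FPKM. Tcam1 and Scn4a, the gene nearest to Cd79b, were at 0 to 0.44 and 0 to 0.09 FPKM.

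The wider B lineage was read from a list of 68 further genes, of which 60 were measured, 44 were tested and 11 stayed under 1 FPKM in every library. Pax5, the transcription factor that fixes B cell identity, was listed at 0 and 0.05 FPKM in control and at 0.05 and 0.10 FPKM in CD4Cre replicates 1 and 3, and was singled out after its values were seen. Other B cell genes were higher, among them Fcrl1 at 4.5 to 10.8 FPKM, Cd40 at 2.40 to 7.45 FPKM, Ly6d at 2.34 to 8.32 FPKM and Cd72 at 39.0 to 63.1 FPKM, of which Fcrl1, Cd40 and Ly6d were likewise singled out.

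Between genotypes, limma on log2(FPKM + 1) called 0 of the 44 tested list genes at an adjusted p under 0.05 and 0% of all genes tested. At an unadjusted p under 0.05 it found 5 list genes and 642 of all genes, and without a trend in the prior it again called 0, with 656 genes under the unadjusted threshold. Of the 44, 3 had a log2 difference above 1, namely Cd24a, H2-DMb2 and Blnk, and 0 had one below −1, beside 6.2% and 0.441% of all genes tested. Without CD4Cre replicate 1, Foxo1 was at −1.25 and S1pr2 at −1.41, so the 0 below −1 rested on that library. More genes lay past 1 or −1 without it over all genes tested as well. Of the 44, 9 lay entirely higher in CD4Cre than in control libraries and 7 entirely lower, beside 18.4% and 18.6% of all genes tested. Their median difference was 0.09, beside 0.00097 over all genes tested. The paper states in general that its experiments were repeated independently, without saying whether these pools came from separate repeats. The p-values measure the spread between these libraries.

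Among 13 tested B cell surface genes the median difference was 0.11. The highest of them were Cd37, a tetraspanin, Cd72, an inhibitory receptor, Cd24a and Tnfrsf13b, the TACI receptor. Tnfrsf13b was at 44.9 and 34.6 FPKM in control and at 28.7 and 24.4 FPKM in CD4Cre replicates 1 and 3, a log2 difference of −0.56 ± 0.22 (SE, limma adjusted p = 0.755). Cd37 (−0.35) and Cd72 (−0.06) overlapped between genotypes. Cd24a, which intestinal epithelial cells also express, was at 10.8 and 32.0 FPKM and at 30.9 and 60.6 FPKM, a difference of 1.17, and its order over the libraries was that of the epithelial marker sum, lowest in control replicate 1 and highest in CD4Cre replicate 3. The Cd24a difference was 0.43 without control replicate 1, 0.70 without CD4Cre replicate 3 and 1.92 without control replicate 3, so its place above 1 rested on single libraries. H2-DMb2, a chain of the MHC class II peptide exchange factor, was listed at 0 and 3.48 FPKM and at 10.5 and 3.90 FPKM (difference 1.83, without overlap), and has a near-identical neighbour between which fragments may be split. The H2-DMb2 difference was 0.74 without control replicate 1 and 2.91 without control replicate 3. With pseudocounts of 0.1 and 0.01 it was 3.44 and 5.10, so its size depended on the value at 0. Vpreb3, a pre-B cell receptor protein, was the 1 list gene of 44 that was higher by over 1 in replicate 1 of both genotypes. This rule was met by 0.433% of all genes tested. On the list 0 were lower by as much, beside 3.89% of all genes tested. Vpreb3 was listed at 1.23 and 0 FPKM in control and at 2.16 and 0.21 FPKM in CD4Cre replicates 1 and 3.

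Of 11 tested genes of B cell receptor signalling (median difference 0.10), Blnk, the adaptor that links the receptor to calcium signalling, was at 2.62 and 2.81 FPKM in control and at 6.30 and 9.15 FPKM in CD4Cre replicates 1 and 3. Both CD4Cre libraries were above both others, with a log2 difference of 1.21 ± 0.32 (SE, limma adjusted p = 0.755), and without CD4Cre replicate 3 it was 0.98. Plcg2, the phospholipase downstream of Blnk, had the opposite sign (−0.58), as did the lipid phosphatase gene Inpp5d (−0.48), and both had groups that did not overlap. Dapp1 (0.10) and Pik3ap1 (−0.08), adaptors of phosphoinositide signalling, overlapped. Genes of one signalling chain thus had differences of both signs, and none of the 11 passed this model's adjusted threshold.

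Of 7 tested transcription factors (median 0.24), Irf8 was at 101 to 112 FPKM and differed by −0.02, Ikzf3 (Aiolos) by −0.37, Tcf3 (E2A) by 0.34 and Foxo1 by −0.74. Without CD4Cre replicate 3 Foxo1 was at −0.24 and Ikzf3 at −0.14, without CD4Cre replicate 1 they were at −1.25 and −0.61, and Tcf3 was at 0.13 without control replicate 3 and 0.56 without control replicate 1. These factors are used by T cells too. Of 3 tested germinal centre genes (median −0.64), Gcsam was at 16.1 and 15.7 FPKM in control and at 10.01 and 9.69 FPKM in CD4Cre replicates 1 and 3 (−0.64 ± 0.23, SE, limma adjusted p = 0.755). Its replicates were close together, unlike those of Jchain. Bcl6, the repressor of germinal centre B cells, differed by −0.45 and S1pr2 by −0.76, and Mybl1 stayed under 1 FPKM. The size of the S1pr2 difference rested on CD4Cre replicates, at −0.10 without replicate 3 and −1.41 without replicate 1, and Bcl6 was at −0.29 without CD4Cre replicate 3.

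Of 10 tested plasma cell and secretory genes (median 0.06), Xbp1, the factor of the unfolded protein response that plasma cells require, was at 171 and 177 FPKM in control and at 205 and 180 FPKM in CD4Cre replicates 1 and 3. Its difference was 0.14, and its level did not have the order of Jchain. Creld2 (−0.05) and Edem1 (−0.40), genes of protein folding and disposal, overlapped between genotypes. Txndc5, a disulfide isomerase, was at 17.6 and 23.8 FPKM and at 31.1 and 42.5 FPKM (0.80 ± 0.26, SE, limma adjusted p = 0.755), highest in CD4Cre replicate 3, where Jchain was lowest. Secretory genes are shared by many cell types.

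**Figure D3:**
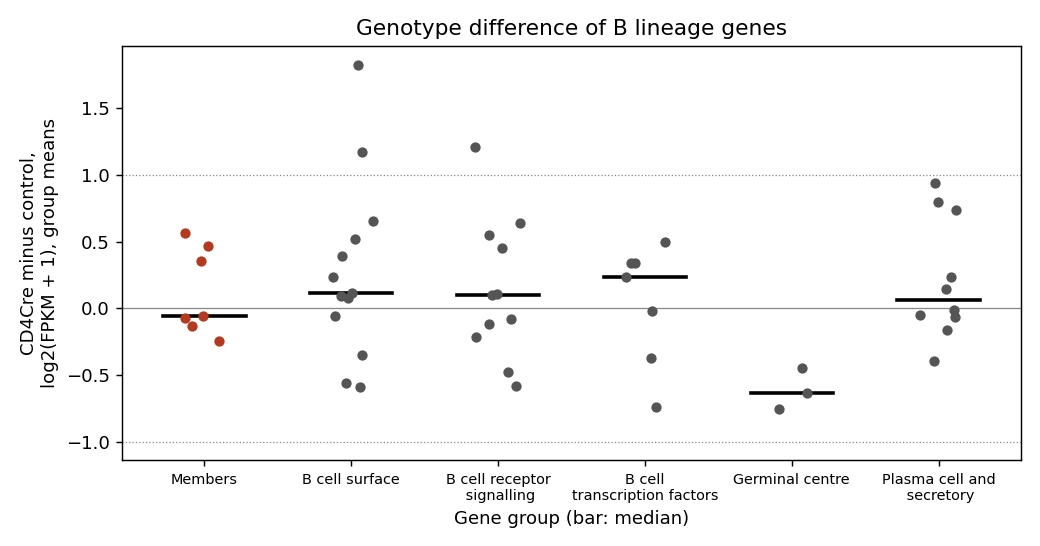
Difference of the genotype means (CD4Cre minus control) on the log2(FPKM + 1) scale for the 7 members, Ms4a1 and Fcer2a included, and for the tested genes of each B lineage group, 1 point a gene, with bars at medians and dotted lines at 1 and −1. Points lie on both sides of 0 in every group except the 3 germinal centre genes, and Blnk (1.21), Cd24a (1.17) and H2-DMb2 (1.83) lie above 1.

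Over all 44 tested list genes, replicate 1 was above replicate 3 in both genotypes for 28, by any amount, beside 4139 (34.5%) of all genes tested. Markers of other cells moved between the libraries too. Of 22 epithelial markers, 21 were lower by over 1 in replicate 1 of both genotypes (3.89% of all genes tested). A genotype difference above 1 was found for 18 of them (6.2% of all genes tested). The highest were Krt8, at 275 to 2518 FPKM, and Krt19, at 227 to 2075 FPKM, and none was at 0. The T cell and sort markers (11 measured) summed to 0.811 in control replicate 3, 0.809 in CD4Cre replicate 1 and 0.558 in CD4Cre replicate 3, relative to control replicate 1, where the B cell surface list summed to 0.830, 0.999 and 0.779. Within them Cd4, Cd5, Cd2, Cd3e, Cd3g and Cd247 were, like Jchain, highest in the replicate 1 libraries (22.8% of all genes tested). Of the 10 tested, 2 were so by over 1 in both genotypes (Cd4 and Cd2), beside 0.433% of all genes tested.

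The summed myeloid and dendritic markers (15 measured, led by Lyz2 and C1qb) stood at 0.627, 1.12 and 1.39 in the same order, and the 6 MHC class II genes, led by Cd74 and H2-Ab1, at 0.736, 1.69 and 1.19. All 6 of the latter, which B cells share with dendritic cells and enterocytes, were higher in both CD4Cre libraries than in both control libraries. So were 9 of 13 tested myeloid markers, beside 18.4% of all genes tested. None of the myeloid or MHC class II markers was at 0 in any library. The 7 receptor signalling chain genes of T and NK cells, led by Cd3g and Fcer1g, stood at 0.741, 0.769 and 0.522, below Cd79b on this scale in each. Sox13, the 1 measured marker of γδ T cells, was at 0.34 to 1.65 FPKM. The part of these markers in the levels of the B lineage genes was not tested.

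**Figure D4:**
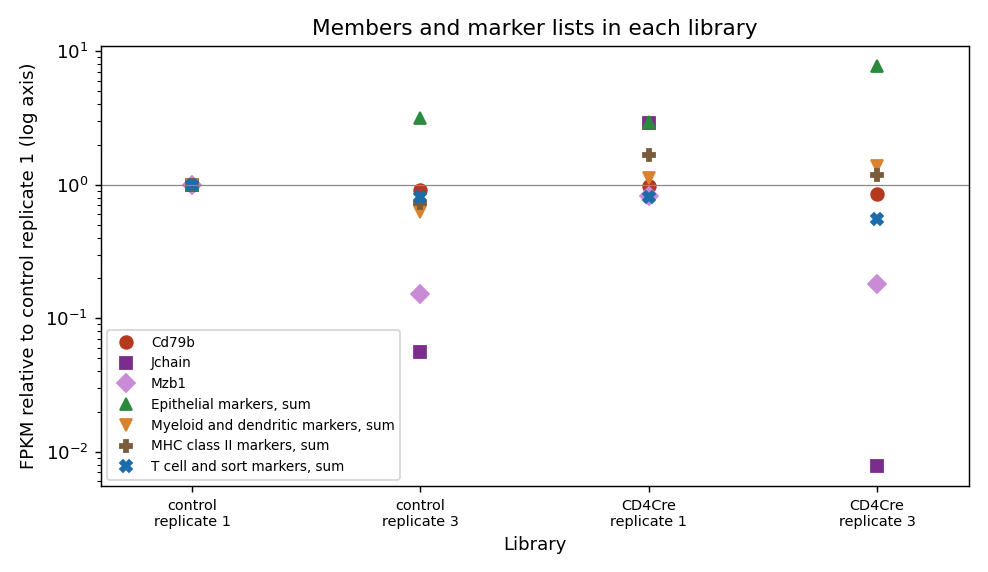
Levels of Cd79b, Jchain and Mzb1 and summed levels of marker lists in each library, relative to control replicate 1, where every point is at 1 (log axis). Cd79b stayed near 1, Jchain and Mzb1 were low in both replicate 3 libraries, and the epithelial sum was highest, at 7.76, in CD4Cre replicate 3.

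When the libraries were scaled to equal levels of the Cd3 genes and Ptprc, the difference of Cd79b turned to 0.34, while the median of all genes tested moved to 0.38, so relative to the other genes Cd79b was again near the middle. On the same scale Plcg2 was at −0.17, Inpp5d at −0.06, Gcsam at −0.24, Tnfrsf13b at −0.15 and Bcl6 at −0.18, and Cd37 and Ikzf3 turned to 0.07 and 0.05, each below that median. Cd72 (0.36), Pik3ap1 (0.33), Creld2 (0.36), Edem1 (0.01), Mybl1 (0.14) and Irf8 (0.40) turned as well. So did the members Cd79a and Mzb1, both to 0.18. Of these only Irf8 lay above that median. With control replicate 3 left out, the median difference of the other 6 members turned to −0.56, and with control replicate 1 left out it was 0.81, so their direction rested on single libraries.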

How the data were processed

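The authors sorted the cells by flow cytometry, isolated total RNA with TRIzol and pooled RNA of several mice of a genotype per library. HISAT and Bowtie2 served to map reads to mm10 and RSEM to quantify genes, and the submitters' processing notes name Bowtie2 2.2.5 and RSEM 1.2.8. The deposited values are FPKM, scaled by the authors to transcript length and mapped fragments, without counts. RSEM divides fragments among similar transcripts, so levels of paralogs are uncertain. Symbols and coordinates came from RefSeq (GRCm38.p6), which matched 18467 of 19339 identifiers.

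The members and the lists were chosen with earlier results of these data known. Differences are those of group means of log2(FPKM + 1), CD4Cre minus control, and understate changes of low genes. The 12009 genes that reached 1 FPKM in 2 or more libraries were fitted in limma 3.58.1 (R 4.3.3, lmFit, eBayes with a trend, Benjamini-Hochberg adjustment). The fit was also run on simulated data in which every gene had the same spread, unlike in these libraries. That run does not show how the fit performs here. Fragments per gene were estimated from the smallest steps of FPKM in short genes (0.07 to 0.0855 FPKM times kilobases per fragment, with transcript lengths reduced by 140 bases), and exact Poisson and binomial intervals cover counting error only. These estimates are approximate. Tables were handled with pandas 2.3.3, numpy 2.4.6 and scipy 1.17.1.

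Named genes were the 7 members, the 4 highest genes of each B lineage group, listed genes past a log2 difference of 1 without overlap, the 10 genes nearest to Cd79b, its neighbours within 50 kb, and the defining and the 2 highest genes of other lists. Pax5, Fcrl1, Cd40, Ly6d, Vpreb3, Prdm1, Irf4, Tnfrsf17, Ell2, Sdc1, Fkbp11, Cd5, Cd2 and Cd247 lie outside this rule and were named after their values were seen. Alternatives were the pseudocount, the filter, the scaling, the limma prior, the replicate number as a block and leaving out each library. Immunoglobulin and T cell receptor constant genes, Xcr1 and the other assays of the study were not analysed here.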

Additional observations from a re-analysis of the deposited data

How the results depend on the processing

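Both groups held 2 libraries, so a single library could set a mean, and no sample could be tested as an outlier. Depth limited Ms4a1, Fcer2a and the replicate 3 values of Jchain and Mzb1, which rested on few fragments. The replicate numbers pair the libraries by number alone: deviations of the same-numbered libraries correlated at 0.56 (Spearman 0.542) across 12009 genes, from 2 pairs. With the replicate number as a block, limma called 5 list genes (Cd24a, Blnk, Foxo1, Sdc1 and Txndc5) and 1019 of all genes (886 higher, 133 lower), against 0 without it.

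The difference of Cd79b was 0.34 after scaling to the Cd3 genes and Ptprc, and −0.17 to 0.03 with each library left out. The median of the other 6 members ran from −0.56 to 0.81 with each library left out and was −0.09 with a pseudocount of 0.1 and −0.087 with 0.01. Cd79b minus that median was −0.22, and −0.82 to 0.43 with each library left out. The list genes past a difference of 1 numbered 3, and 5 and 6 with pseudocounts of 0.1 and 0.01, 7 after the Cd3 and Ptprc scaling and 2 to 9 with each library left out. Over all genes the number was 797, and 1381, 1451, 1488 and 341 to 1489 in the same order. The lowest of these, 341, was without control replicate 1, the highest, 1489, without CD4Cre replicate 1, and without control replicate 3 and CD4Cre replicate 3 it was 1354 and 388. For the list these were 2, 9, 6 and 3. Higher against lower genes were 744 and 53, against 1463 and 25 after the Cd3 and Ptprc scaling, and 581 and 92 after quantile normalization. The cause was not tested. Without the block limma called 0 list genes in every setting run, which says little about stability, since the smallest adjusted p over all genes was 0.193 and, with a library left out, the lone library of a group was assumed to vary as the other group does.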
